A study of Mus musculus with 6 samples.

Results

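The genes described here encode amino acid transporters of the plasma membrane, of lysosomes and of vesicles, read in mouse gastrocnemius, the large calf muscle, after a high phosphate or a normal phosphate diet. The members are the protein-coding rows of the count table with a symbol in the Slc1a, Slc3a, Slc6a, Slc7a, Slc36a, Slc38a or Slc43a series, leaving out Slc6a8, the creatine transporter. There were 61 such genes among 47967 rows. Of these, 40 had enough counts to be tested, 17 were detected with counts below the filter of the main test, and 4 had a count of 0 in every library. The rule goes by symbol alone, so it takes in some genes that do not carry amino acids: Slc6a2, Slc6a3 and Slc6a4 encode the noradrenaline, dopamine and serotonin transporters, Slc43a3 encodes a purine nucleobase transporter, and Slc7a6os encodes a protein that is no transporter by name.

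The high phosphate (HP) mice were kept for 12 weeks on a diet whose inorganic phosphate was 2.0% and whose total phosphate was 2.3%. The normal phosphate (NP) mice had 0.6% inorganic and 0.9% total phosphate over the same time. All were male C57BL/6 mice of 20 to 24 weeks, and both diets held 0.9% sodium, 1.8% potassium, 1.9% calcium and 0.3% magnesium. Each diet has 3 libraries of gastrocnemius RNA. The labels do not say that each library is a separate mouse, so the p-values rest on a spread between samples that may be technical.

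Amino acids cross membranes by several kinds of carrier. Sodium-coupled carriers such as those of the SLC38 family, called SNATs, build up small neutral amino acids and glutamine inside the cell. Exchangers such as LAT1 and LAT2, each an SLC7 light chain held at the membrane by the heavy chain 4F2hc, then trade intracellular amino acids for leucine and other large neutral ones. Skeletal muscle is a main store of free amino acids and the main source of circulating glutamine and alanine, and leucine entering a fibre is read by the mTORC1 kinase complex, which drives protein synthesis.

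Levels below are CPM, gene counts scaled to a common library size with TMM factors, with the values of replicates 1, 2 and 3 in that order, and a log2 fold change is HP over NP ± its standard error. A gene was called where the quasi-likelihood test of edgeR, adjusted over all 15347 genes tested, gave an adjusted p under 0.05. On that rule 8 members were higher on HP, 16 were lower and 16 were not called. Among all genes tested, 23% were called higher and 26.3% lower, 49.3% in all, so the share of members called higher was close to the background and the share called lower was above it, with no test of the list. Changes of at least 2-fold were called in 5 members in the higher direction and in 11 in the lower direction, against 4.47% and 13.5% of all genes tested. The median log2 fold change was -0.28 over the 40 members and -0.02 over all genes tested. The diets did not overlap in any called member. HP lay wholly above NP in 8 members, against 30.3% of all genes tested, and wholly below it in 18, the 16 called lower together with Slc7a6os and Slc38a9, against 32.1%; in all, 62.4% of genes tested did not overlap.

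The libraries of the 2 diets differed throughout, and this bears on each member. Total counts were 21856006 to 27474251 per library, and the TMM factors, which rescale each library, were 0.795 to 0.882 on HP and 1.10 to 1.29 on NP. The 10 most abundant genes held 21.6% to 24.0% of counts on HP and 13.0% to 16.2% on NP. The labelled tissue was checked on fibre genes such as Acta1, Ckm and Myh4, which were abundant in every library: 6 of 8 were called higher on HP, and their summed level was 130394 to 171415 CPM on HP and 45743 to 64923 CPM on NP. Markers of several other cell types were lower. All 8 white adipocyte markers were lower on HP (summed level 2281 to 3931 CPM on HP, 5543 to 6817 CPM on NP), as were all 6 fibroblast markers (1967 to 2236 CPM on HP, 3930 to 8405 CPM on NP), all 6 macrophage markers (284 to 407 CPM on HP, 853 to 1593 CPM on NP) and all 5 endothelial markers (413 to 576 CPM on HP, 712 to 854 CPM on NP). All 5 B cell markers were lower (0.962 to 1.83 CPM on HP, 9.004 to 56.2 CPM on NP), and so were all 5 T cell markers (0.571 to 1.32 CPM on HP, 7.28 to 25.8 CPM on NP). Of 5 pericyte and smooth muscle markers 1 was lower, and none of 5 Schwann cell and 5 erythroid markers was called. No marker was at 0 in all libraries. In bulk RNA, fewer cells of a type and less RNA per cell cannot be told apart, and the part of these markers in any result on transporters was not tested.

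**Figure D1:**
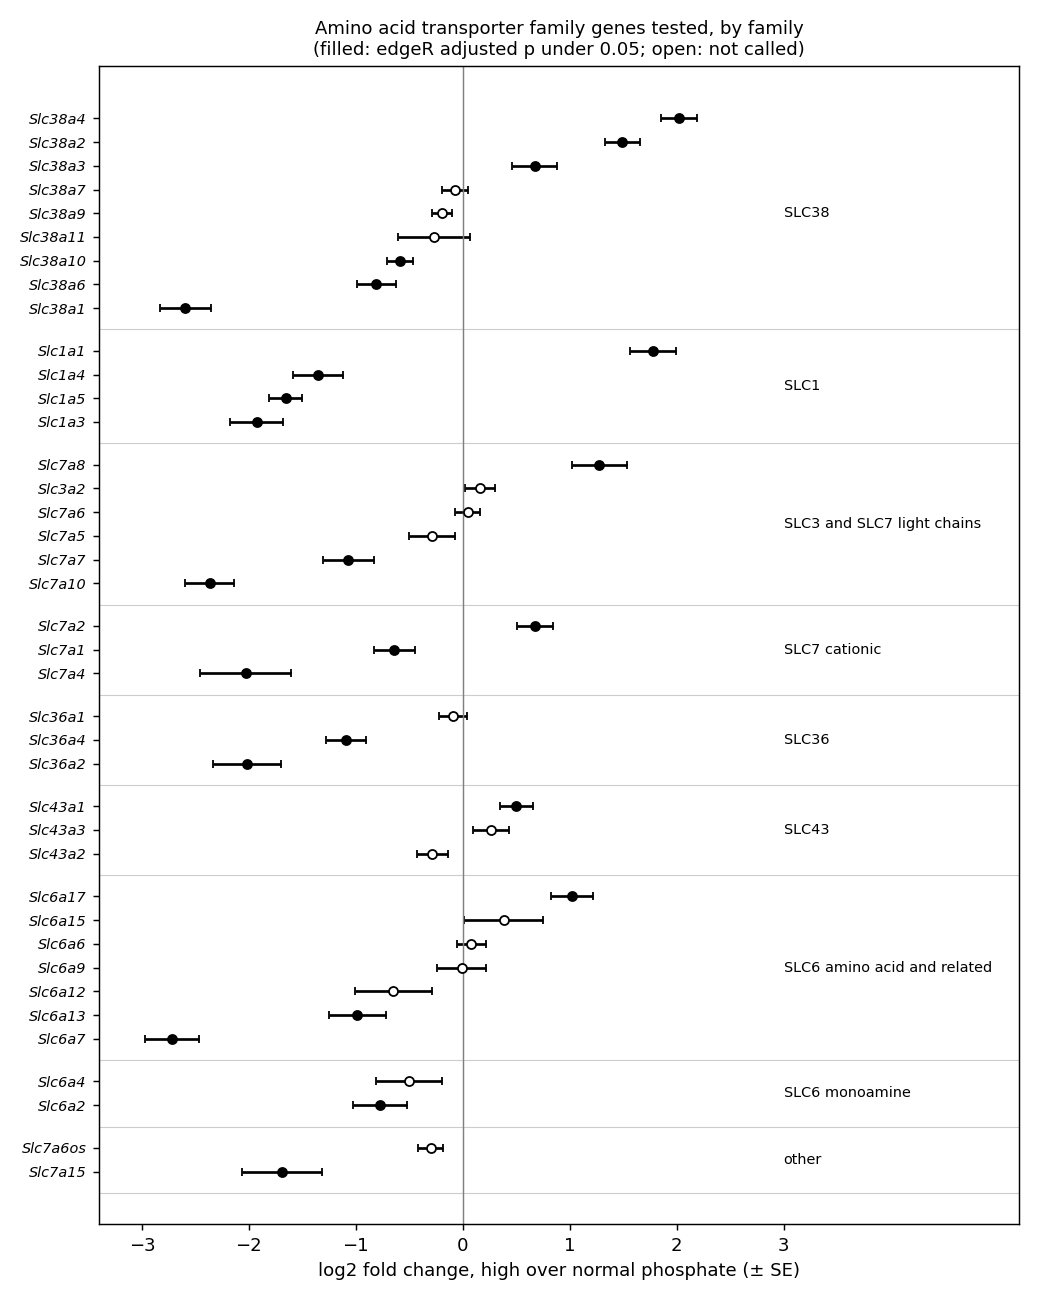
Log2 fold change, HP over NP, of 39 of the 40 members tested, grouped by family, with bars for the standard error. Filled points are members called by edgeR at an adjusted p under 0.05 and open points those not called: 8 filled points lie right of 0 and 16 left of it, and both directions occur in the SLC38, SLC1, SLC7 and SLC6 families.

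Among the sodium-coupled neutral amino acid transporters of the SLC38 family, 9 of 11 genes could be tested, and 3 were higher on HP, 3 were lower and 3 were not called. Slc38a4 and Slc38a2, which encode the system A carriers SNAT4 and SNAT2 for alanine, serine, glutamine and other small neutral amino acids, had the largest and the third largest increase among the members. Slc38a3, which encodes the system N carrier SNAT3 for glutamine, histidine and asparagine, was higher by a smaller amount. Slc38a1, which encodes SNAT1, another sodium-coupled glutamine carrier, showed the second largest decrease.

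Slc38a4 read 182, 190.1 and 225 CPM in the HP libraries, against 54.4, 37.6 and 54.8 CPM in the NP libraries. The lowest HP value was over 3 times the highest NP value. Its level averaged 199 ± 22.8 CPM on HP and 48.9 ± 9.85 CPM on NP (SD, n = 3 each), a 4.07-fold difference (log2 fold change 2.02 ± 0.17, edgeR adjusted p = 0.000184). In the mouse this gene is imprinted and read from the paternal allele. Slc38a2 read 249.8, 304 and 316 CPM in the HP libraries, against 122, 86.6 and 101 CPM in the NP libraries. The diets were again far apart, and library 1 was the lowest on HP and the highest on NP. The averages were 289.8 ± 35.1 CPM on HP and 103 ± 17.7 CPM on NP, a 2.81-fold difference (log2 fold change 1.49 ± 0.16, edgeR adjusted p = 0.000444). Both calls held in every fit that left out 1 library and under every other way of scaling and testing that was run.

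Slc38a3 read 101.6, 113 and 83.0 CPM in the HP libraries, against 64.5, 43.3 and 78.7 CPM in the NP libraries. The diets did not overlap, but the lowest HP value and the highest NP value were close (log2 fold change 0.67 ± 0.21, edgeR adjusted p = 0.0272). Its call rested on single libraries: the adjusted p was 0.0672 without HP library 1, 0.0824 without HP library 2 and 0.0566 without NP library 1.

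Slc38a1 read 1.92, 1.89 and 1.19 CPM in the HP libraries, against 10.6, 11.8 and 8.02 CPM in the NP libraries. The highest HP value was far below the lowest NP value, that of library 3 (log2 fold change -2.59 ± 0.23, edgeR adjusted p = 0.000237), and the NP average was 6.03 times the HP average. The other 2 decreases in the family were smaller. Slc38a10, a widely expressed member whose protein is less studied, read 66.4, 60.4 and 56.2 CPM in the HP libraries, against 86.3, 104 and 84.8 CPM in the NP libraries (log2 fold change -0.59 ± 0.12, edgeR adjusted p = 0.00384). Slc38a6, a member described mainly from brain, read 5.68, 5.15 and 4.83 CPM in the HP libraries, against 7.43, 11.2 and 8.82 CPM in the NP libraries (log2 fold change -0.81 ± 0.18, edgeR adjusted p = 0.00591). Of its exonic 50-base stretches 22.8% also occur in other genes, so the counts of Slc38a6 are less certain. The main one is D10Wsu102e, which was not called (log2 fold change -0.25, edgeR adjusted p = 0.162).

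Slc38a9, which encodes the lysosomal arginine sensor that signals to mTORC1, was not called, although its HP values lay below its NP values (log2 fold change -0.19 ± 0.10, edgeR adjusted p = 0.119). Slc38a7, which encodes a lysosomal glutamine exporter, and the low Slc38a11 were not called either (log2 fold changes -0.07 ± 0.12 and -0.27 ± 0.34).

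The 3 SLC38 genes with the largest changes are neighbours. In the GENCODE M21 annotation of GRCm38 they lie in a row on the minus strand of chromosome 15: Slc38a1 at 96571418 to 96642913, Slc38a2 at 96687392 to 96699730 and Slc38a4 at 96994820 to 97055956. Between them the annotation lists only an snRNA, an unclassified transcript and 2 processed pseudogenes, none with enough counts for a test. The first of the row was lower on HP and the other 2 were higher, so adjacent paralogues on the same strand were read in opposite directions. The promoters of both higher genes are shown because neither holds either element searched for among the members: TGATGNAA, the core of the C/EBP-ATF element through which ATF4 acts on amino acid genes, or TCACGTG, the core of the element bound by TFEB at lysosomal genes. Slc38a2 is a known ATF4 target through an element inside the gene, outside this window. The stretches run from 120 bases before to 25 bases from the start site (RefSeq, GRCm38.p6; Slc38a2 chr15:96699704-96699848, minus strand; Slc38a4 chr15:97055932-97056076, minus strand), 5′ to 3′ on the gene's strand, in lower case since they hold no match.
Slc38a2: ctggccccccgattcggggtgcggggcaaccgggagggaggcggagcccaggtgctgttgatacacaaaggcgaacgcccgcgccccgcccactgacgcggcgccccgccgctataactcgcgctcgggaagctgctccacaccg
Slc38a4: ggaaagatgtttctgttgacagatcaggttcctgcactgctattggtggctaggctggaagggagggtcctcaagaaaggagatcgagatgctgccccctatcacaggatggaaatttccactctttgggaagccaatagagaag

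**Figure D2:**
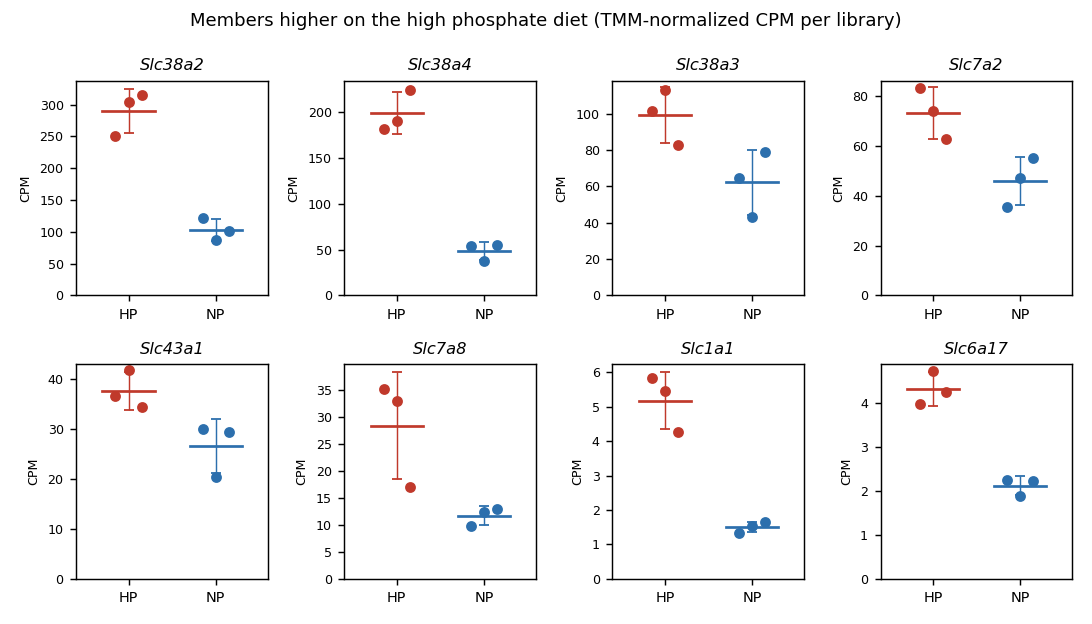
TMM-normalized CPM per library of the 8 members called higher, HP left of NP, each panel on its own linear axis from 0, with the mean as a line and the SD as a bar (n = 3 each). Every HP point lies above every NP point in each panel. The widest gaps are those of Slc38a4, Slc38a2 and Slc1a1, and values are close for Slc38a3, Slc7a2 and Slc43a1.

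All 4 tested genes of the SLC1 family were called, 1 higher and 3 lower. The family holds 2 branches, the glutamate transporters known from synapses and the neutral amino acid exchangers ASCT1 and ASCT2. Both branches contributed decreases, and a glutamate transporter gave the increase.

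Slc1a5 (GRCm38 chromosome 7, 16781340 to 16798274, plus strand) encodes ASCT2, an exchanger that moves glutamine, alanine, serine and cysteine. It read 46.1, 47.6 and 51.6 CPM in the HP libraries, against 134, 134 and 190.2 CPM in the NP libraries. The HP libraries lay within a few CPM of each other, while NP library 3 stood above the other NP libraries. The averages were 48.4 ± 2.87 CPM on HP and 153 ± 32.6 CPM on NP (SD, n = 3 each), so the NP level was 3.15 times the HP level (log2 fold change -1.66 ± 0.16, edgeR adjusted p = 0.000272). Slc1a4, which encodes ASCT1, the related exchanger for serine, alanine and cysteine, stood far lower and read 1.47, 1.58 and 1.51 CPM in the HP libraries, against 3.33, 4.82 and 3.48 CPM in the NP libraries (log2 fold change -1.35 ± 0.23, edgeR adjusted p = 0.00183). The 2 exchangers thus fell together.

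Slc1a3 encodes GLAST, a glutamate transporter best known from glia. It read 5.04, 9.27 and 7.37 CPM in the HP libraries, against 23.8, 22.9 and 35.5 CPM in the NP libraries, and every NP value was over 2 times the highest HP value (log2 fold change -1.93 ± 0.25, edgeR adjusted p = 0.00088). Slc1a1 encodes EAAC1, a transporter of glutamate, aspartate and cysteine. It read 5.82, 5.45 and 4.26 CPM in the HP libraries, against 1.34, 1.52 and 1.65 CPM in the NP libraries, so its lowest HP value was over 2 times its highest NP value (log2 fold change 1.78 ± 0.21, edgeR adjusted p = 0.000558). Overlapping exons on the opposite strand, mainly of 4430402I18Rik, cover 31.9% of the exon bases of Slc1a1. Reads of the 2 strands cannot be told apart without a strand setting. The gene 4430402I18Rik had 31 to 92 counts per library and was not called (log2 fold change 0.71, edgeR adjusted p = 0.108).

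The promoter of Slc1a4 is shown because it is one of 2 promoters of lower members with a match to TGATGNAA. The sequence runs over the same window as above (chr11:20332689-20332833, minus strand), and the capitals mark the match, which lies on the opposite strand across the start site.
Slc1a4: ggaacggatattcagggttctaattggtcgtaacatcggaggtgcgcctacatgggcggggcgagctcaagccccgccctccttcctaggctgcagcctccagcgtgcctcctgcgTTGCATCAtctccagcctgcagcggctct
The other lower member with a match was Slc7a7, with 2 distinct sites in its overlapping promoter windows. Of the members with a promoter in the RefSeq table, matches stood in 0 of 6 called higher, 2 of 10 called lower, 0 of 11 not called and 1 of 17 not tested, the last being Slc7a11, against 4.51% of 27025 genes with 300-base promoters searched on both strands. A match is a description of letters in a window.

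Heteromeric transporters pair a heavy chain with an SLC7 light chain. The heavy chain 4F2hc, encoded by Slc3a2, was among the more abundant members and was not called. It read 38.5, 56.0 and 43.2 CPM in the HP libraries, against 37.9, 43.1 and 41.9 CPM in the NP libraries, with overlapping diets (log2 fold change 0.16 ± 0.14, edgeR adjusted p = 0.353). Of the 5 light chains tested beside it, 1 was higher, 2 were lower and 2 were not called.

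Slc7a8 (GRCm38 chromosome 14, 54722209 to 54781946, minus strand) encodes LAT2, the light chain for a broad range of neutral amino acids. It read 35.2, 32.9 and 17.0 CPM in the HP libraries, against 9.77, 12.3 and 13.0 CPM in the NP libraries. HP library 3 was far below the other HP libraries but still above all NP libraries. The averages were 28.4 ± 9.89 CPM on HP and 11.7 ± 1.70 CPM on NP (SD, n = 3 each), with the call held in every fit that left out 1 library (log2 fold change 1.28 ± 0.26, edgeR adjusted p = 0.00515). Slc7a5, which encodes LAT1, the main leucine exchanger of growing cells, was low in this muscle and was not called (log2 fold change -0.28 ± 0.22, edgeR adjusted p = 0.296). Slc7a6, which encodes the y+LAT2 exchanger of cationic for neutral amino acids, averaged 21.3 ± 2.54 CPM on HP and 20.6 ± 1.15 CPM on NP and was not called (log2 fold change 0.05 ± 0.12).

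The 2 lower light chains were Slc7a10 and Slc7a7. Slc7a10 encodes Asc-1, a carrier of small neutral amino acids and D-serine that is used as a surface marker of white fat cells in the mouse. It read 1.74, 2.39 and 2.49 CPM in the HP libraries, against 9.43, 10.03 and 14.6 CPM in the NP libraries, and the NP level was 5.15 times the HP level (log2 fold change -2.37 ± 0.23, edgeR adjusted p = 0.000284). Overlapping exons on the other strand, mainly of Lrp3, cover 17.9% of its exon bases, and Lrp3 was not called (log2 fold change -0.19, edgeR adjusted p = 0.208). Slc7a7, which encodes y+LAT1, a light chain of epithelia and macrophages, read 2.75, 2.96 and 2.54 CPM in the HP libraries, against 4.94, 7.76 and 4.61 CPM in the NP libraries (log2 fold change -1.07 ± 0.24, edgeR adjusted p = 0.00558). Exons on the other strand, mainly of Oxa1l, cover 7.0% of the exon bases of Slc7a7. Oxa1l had 1297 to 1671 counts per library and was called the other way (log2 fold change 0.36, edgeR adjusted p = 0.036). The summed white adipocyte and macrophage markers were lower on HP beside Slc7a10 and Slc7a7, in the ranges given above. Those of fibroblasts, endothelial cells, B cells and T cells were lower too, and a link of either gene to a cell type was not tested. Slc7a15, a mouse paralogue of this branch, averaged under 1 CPM and was lower on HP (log2 fold change -1.69 ± 0.37).

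The cationic transporters carry arginine, lysine and ornithine, and the 3 tested genes split. Slc7a2, which encodes CAT2, whose low-affinity form is known from muscle and liver, read 83.3, 74.2 and 62.7 CPM in the HP libraries, against 35.7, 47.3 and 55.0 CPM in the NP libraries and was higher on HP (log2 fold change 0.67 ± 0.17, edgeR adjusted p = 0.00962). Slc7a1, which encodes the widely expressed CAT1, read 8.06, 5.197 and 6.59 CPM in the HP libraries, against 9.58, 12.2 and 9.23 CPM in the NP libraries and was lower (log2 fold change -0.64 ± 0.19, edgeR adjusted p = 0.0201). The HP and NP values of Slc7a1 came close, and the call was lost in 3 of the fits that left out 1 library: the adjusted p was 0.0712 without HP library 2, 0.0616 without HP library 3 and 0.0565 without NP library 2. Slc7a4, a relative with no established substrate, averaged under 1 CPM and was lower on HP (log2 fold change -2.03 ± 0.42). Exons on the other strand, mainly of P2rx6, overlap 13.3% of the exon bases of Slc7a4. P2rx6 was called the other way (log2 fold change 0.43, edgeR adjusted p = 0.0141). The lowest HP value and the highest NP value of Slc7a2 were also close. Its sign differed between the TMM-scaled counts and the deposited FPKM, as described with the scalings below. These differ in scaling as well as in unit, and which of them set the sign was not tested.

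The proton-coupled transporters of the SLC36 family, the PATs, carry small neutral amino acids out of lysosomes or across the plasma membrane. Of the 3 tested, 2 were lower and none was higher. Slc36a2, which encodes PAT2, a carrier of glycine, alanine and proline also found on the surface of mouse fat cells, read 3.21, 7.03 and 3.58 CPM in the HP libraries, against 17.5, 14.3 and 24.2 CPM in the NP libraries (log2 fold change -2.02 ± 0.32, edgeR adjusted p = 0.00183). HP library 2 was the highest on HP and NP library 3 the highest on NP. Slc36a4, which encodes PAT4, read 7.33, 11.0 and 10.8 CPM in the HP libraries, against 19.0, 24.9 and 18.01 CPM in the NP libraries (log2 fold change -1.09 ± 0.19, edgeR adjusted p = 0.00182). Slc36a1 encodes the lysosomal PAT1. It averaged 14.4 ± 1.43 CPM on HP and 15.3 ± 1.81 CPM on NP and was not called (log2 fold change -0.09 ± 0.13, edgeR adjusted p = 0.602).

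Slc36a1 and Slc36a2 are divergent neighbours on chromosome 11, at 55204350 to 55236330 on the plus strand and at 55158470 to 55185077 on the minus strand, so of this pair 1 was lower and the other was not called. The Slc36a1 promoter is shown because it holds the most matches to TCACGTG among the members, at a gene that was not called. The window is the same (chr11:55204220-55204364, plus strand). Capitals mark the matches: the first is on the opposite strand, and the second is a palindrome that reads on both strands.
Slc36a1: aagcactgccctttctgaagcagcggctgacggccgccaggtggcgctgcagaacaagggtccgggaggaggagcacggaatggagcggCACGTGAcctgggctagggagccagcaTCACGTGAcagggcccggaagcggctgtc
Slc38a7, another uncalled lysosomal carrier, held 1 match. In all, matches stood in 0 of 6 promoters of members called higher, 0 of 10 called lower, 2 of 11 not called and 2 of 17 not tested, against 4.29% of 27025 genes.

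The SLC43 family consists of the facilitators LAT3 and LAT4, which pass leucine and other large neutral amino acids without an ion gradient, and the nucleobase carrier. Slc43a1, which encodes LAT3, a carrier long known from muscle and liver, read 36.5, 41.8 and 34.5 CPM in the HP libraries, against 30.0, 20.4 and 29.4 CPM in the NP libraries and was higher on HP (log2 fold change 0.50 ± 0.15, edgeR adjusted p = 0.0239). NP library 2 was the lowest of its values. The difference was below 1.5-fold, and the adjusted p was 0.0789 without HP library 2. Slc43a2, which encodes LAT4, read 32.9, 33.7 and 25.3 CPM in the HP libraries, against 37.9, 42.5 and 31.5 CPM in the NP libraries, with overlapping diets (log2 fold change -0.28 ± 0.15, edgeR adjusted p = 0.134). The carriers LAT3 and LAT4 thus had log2 fold changes of opposite sign, and the difference between them was not tested. Slc43a3 read 66.9, 107 and 72.4 CPM in the HP libraries, against 66.9, 66.8 and 70.8 CPM in the NP libraries and was not called (log2 fold change 0.27 ± 0.17, edgeR adjusted p = 0.209). HP library 2 stood above all others, and the other HP values were close to the NP values.

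In the SLC6 family of sodium- and chloride-coupled carriers, the taurine transporter gene was the highest per length and was not called. Slc6a6, which encodes TauT and keeps muscle rich in taurine, read 165, 176 and 204 CPM in the HP libraries, against 169, 158 and 187 CPM in the NP libraries (log2 fold change 0.08 ± 0.13, edgeR adjusted p = 0.635). Of the other 7 amino acid and related carriers tested, 1 was higher, 2 were lower and 4 were not called. Slc6a17, which encodes a vesicular carrier of neutral amino acids in neurons, read 3.99, 4.74 and 4.26 CPM in the HP libraries, against 2.26, 1.88 and 2.23 CPM in the NP libraries, a 2.04-fold difference (log2 fold change 1.03 ± 0.20, edgeR adjusted p = 0.00293). Slc6a7, which encodes the brain proline transporter PROT, read 0.687, 0.713 and 0.675 CPM in the HP libraries, against 3.91, 4.15 and 5.71 CPM in the NP libraries. Its HP libraries were nearly identical, but they held only 15, 14 and 13 raw counts, where counting error is large. The decrease of Slc6a7 was the largest among the members (log2 fold change -2.72 ± 0.25, edgeR adjusted p = 0.000265), with the NP level 6.59 times the HP level.

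Slc6a13, which encodes the GABA and taurine carrier GAT2, read 2.02, 1.22 and 1.45 CPM in the HP libraries, against 2.87, 2.66 and 3.81 CPM in the NP libraries (log2 fold change -0.98 ± 0.26, edgeR adjusted p = 0.0132). Its call was at the edge, with an adjusted p of 0.0524 without HP library 2 and 0.0506 without HP library 3. Its neighbour Slc6a12, which encodes the betaine carrier BGT1, had a log2 fold change of -0.65 ± 0.36 and was not called. The glycine transporter gene Slc6a9 averaged 3.56 ± 0.703 CPM on HP and 3.58 ± 0.686 CPM on NP, a log2 fold change of -0.01 ± 0.23. Slc6a15, which encodes a brain carrier of neutral amino acids, was under 1 CPM and not called (log2 fold change 0.38 ± 0.37). Of the monoamine carriers, Slc6a2, the noradrenaline transporter of sympathetic nerves, read 2.52, 4.18 and 4.57 CPM in the HP libraries, against 8.08, 5.53 and 5.60 CPM in the NP libraries (log2 fold change -0.77 ± 0.25, edgeR adjusted p = 0.0311). Its adjusted p was 0.0998 without HP library 1, 0.0555 without HP library 2 and 0.109 without NP library 1. Slc6a4 had a log2 fold change of -0.50 ± 0.31 and was not called. Slc7a6os, the member that is no transporter, was not called either (log2 fold change -0.30 ± 0.12, edgeR adjusted p = 0.0592).

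**Figure D3:**
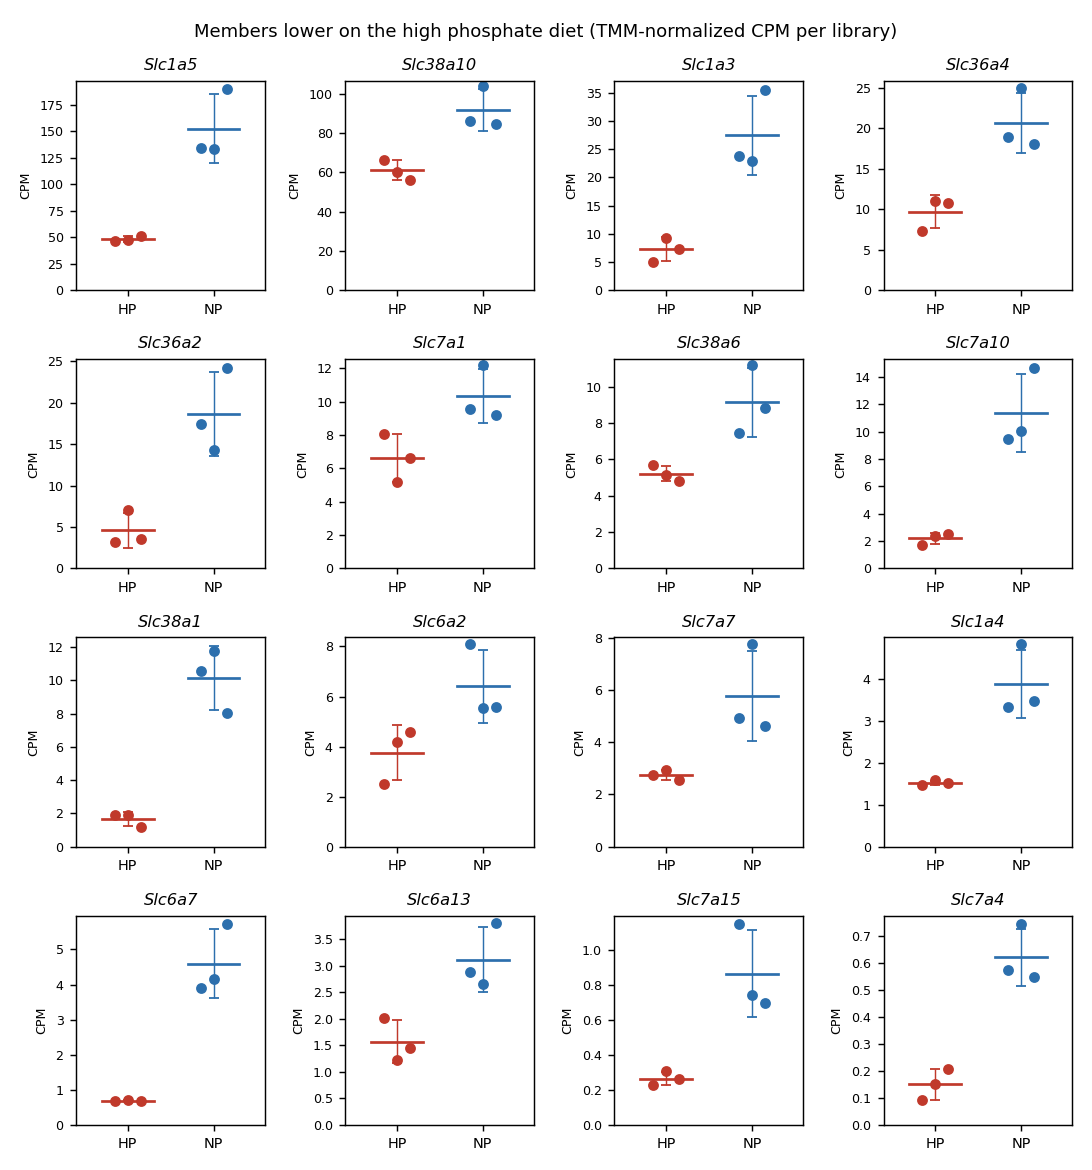
TMM-normalized CPM per library of the 16 members called lower, HP left of NP, each panel on its own linear axis from 0, with the mean as a line and the SD as a bar (n = 3 each). Every HP point lies below every NP point. The HP points are tight for Slc1a5 and Slc6a7, those of Slc6a7 at only 13 to 15 raw counts. NP library 3 is the highest for Slc1a5, Slc1a3, Slc36a2, Slc7a10, Slc6a7 and Slc6a13.

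The NP libraries also differed from each other. Among the 16 lower members the highest NP value was in library 2 for 8, in library 3 for 6 and in library 1 for 2. The 6 with the highest value in NP library 3 were Slc1a3, Slc1a5, Slc36a2, Slc6a13, Slc6a7 and Slc7a10. In that library 7 of 8 white adipocyte markers were also at their highest among the NP libraries. For Plin1, which coats fat droplets, the level there was 161 CPM, against 121 CPM in each of the other NP libraries. In NP library 2, all 6 macrophage markers and 5 of 6 fibroblast markers were at their highest, with Col3a1 at 4082 CPM, as were all 5 pericyte and smooth muscle, all 5 erythroid, 4 of 5 B cell and 4 of 5 T cell markers. In the same library 7 of 8 muscle fibre markers and 7 of 8 white adipocyte markers were at their lowest among the NP libraries. Among the 8 higher members the lowest NP value was in library 2 for 5 and in library 1 for 3. The same counts were not made over all genes called, so none of this is shown to be particular to the members. Whether these other cell types set the transporter values was not tested.

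Of the 21 members outside the main test, 4 had no count in any library: Slc38a8, Slc6a14, Slc6a3, the dopamine transporter, and Slc7a12. A count of 0 allows up to 3 counts, or 0.109 to 0.137 CPM by library before TMM scaling, for counting error only. In 14 more, no library held over 17 counts: Slc1a6, Slc1a7, Slc36a3, Slc38a5, Slc3a1, Slc6a5, Slc6a11, Slc6a18, Slc6a20a, Slc6a20b, Slc7a3, Slc7a9, Slc7a13 and Slc7a14. Slc3a1, a heavy chain of kidney, had 0 to 5 counts but a mean deposited FPKM of 1.05. Exons on the other strand, mainly of Prepl, cover 26.5% of the exon bases of Slc3a1. The remaining 3 genes reached more in single libraries. Slc1a2, the main glutamate transporter of astrocytes, had 5, 1 and 2 counts on HP, against 9, 28 and 139 counts on NP. Slc7a11, the cystine and glutamate exchanger xCT, had 5, 3 and 4 counts on HP, against 4, 18 and 32 counts on NP. Slc6a19, a neutral amino acid carrier of intestine and kidney, had 43, 3 and 4 counts on HP, against 6, 19 and 5 counts on NP. In each of the 3 genes most counts came from 1 or 2 libraries. In the edgeR fit without a filter on low counts, the 17 detected members also had a test, and 2 of them were called lower and none higher: Slc7a11 (log2 fold change -1.69, edgeR adjusted p = 0.0242) and Slc6a11, the GABA carrier known from astrocytes, with 2, 1 and 2 counts on HP, against 5, 9 and 17 counts on NP (log2 fold change -2.11, edgeR adjusted p = 0.0167). Both rest on few counts. The low counts do not show that the genes are absent from the tissue.

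Levels of different genes can be compared only per length, for which the deposited FPKM values (fragment counts corrected for transcript length and depth) were used. The 10 highest members by mean FPKM were, in order, Slc1a5, Slc38a2, Slc6a6, Slc38a4, Slc43a3, Slc3a2, Slc38a3, Slc38a10, Slc43a1 and Slc43a2. The order differed between the diets. On HP the highest member was Slc38a2, and on NP it was Slc1a5. Slc38a2 averaged 41.0 ± 6.81 FPKM on HP and 19.7 ± 1.78 FPKM on NP (SD, n = 3 each), and Slc38a4 averaged 33.2 ± 4.88 FPKM on HP and 11.0 ± 1.43 FPKM on NP, so both were higher per length on HP. Slc1a5 averaged 11.8 ± 1.06 FPKM on HP and 52.8 ± 8.67 FPKM on NP. On HP the values of Slc38a2 and Slc38a4 differed by less than the sum of their SDs, and so did those of Slc6a6 and Slc43a3.

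As a share of the FPKM summed over all 61 members, Slc1a5 took 5.46% ± 0.411 on HP and 19.9% ± 1.85 on NP, Slc38a2 took 18.7% ± 1.44 on HP and 7.55% ± 1.55 on NP and Slc38a4 took 15.3% ± 1.61 on HP and 4.201% ± 0.820 on NP. The ratio of Slc38a2 to Slc1a5 within a library, which does not depend on how libraries are scaled to each other, was 3.05, 3.74 and 3.54 in the HP libraries and 0.497, 0.341 and 0.311 in the NP libraries. Every HP library therefore held several times more Slc38a2 than Slc1a5 per length, and every NP library held less. The summed FPKM of the members was 192, 234 and 228 on HP and 233, 284 and 276 on NP, while their summed CPM was 1251, 1389 and 1338 on HP and 1067, 1040 and 1193 on NP. The total thus leaned opposite ways in the TMM-scaled CPM and the deposited FPKM. These differ in scaling as well as in unit, since the CPM include TMM factors of 0.795 to 0.882 on HP and 1.10 to 1.29 on NP. With counts scaled by library size alone, the median log2 fold change of the members was -0.77, against -0.28 with TMM. Whether the scaling or the unit set the opposite lean was not tested, and no summed CPM without TMM was made.

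**Figure D4:**
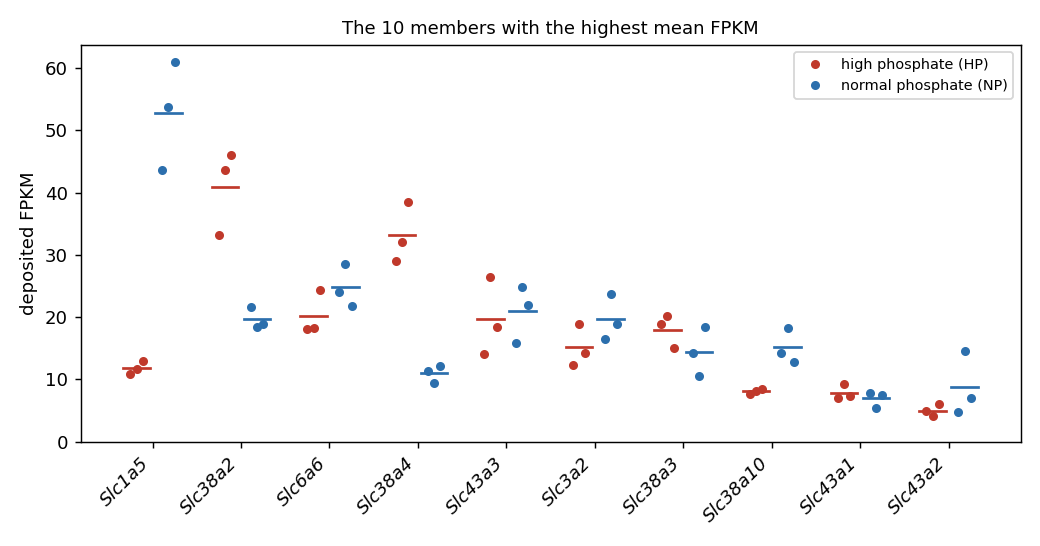
Deposited FPKM per library of the 10 members with the highest mean, HP left of NP, with the group mean as a line. Slc1a5 is the highest member on NP and falls below Slc38a2, Slc38a4, Slc6a6, Slc43a3, Slc38a3 and Slc3a2 on HP, while Slc38a2 and Slc38a4 lie above their NP values in every HP library.

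How many members counted as higher depended on the scaling, as the TMM factors differ between the diets. With library size alone, 4 members were higher and 26 lower, against 5.72% and 51.4% of all genes tested, and the median of all genes moved to -0.49. Slc38a4, Slc38a2, Slc1a1 and Slc7a8 were still called higher, and Slc38a3, Slc43a1, Slc6a17 and Slc7a2 were not. Slc6a6 and Slc7a6, which were not called with TMM, were then lower (log2 fold changes -0.39 and -0.44, edgeR adjusted p = 0.0337 and 0.0217). With limma on log2(FPKM + 1), a scale that understates changes of low genes, 3 members were higher and 17 lower, against 4.68% and 36.8% of all genes tested. There Slc7a2 had a log2 fold change of -0.20 and was not called, the reverse of its sign in the counts. Slc7a8, Slc6a17, Slc38a3 and Slc43a1 were not called there, and neither were Slc36a4, Slc38a6 and Slc7a4 among the lower members. Slc38a4, Slc38a2 and Slc1a1 were higher under all 3 scalings. All 16 members called lower with TMM were also called lower with library size alone, together with 10 more.

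**Figure D5:**
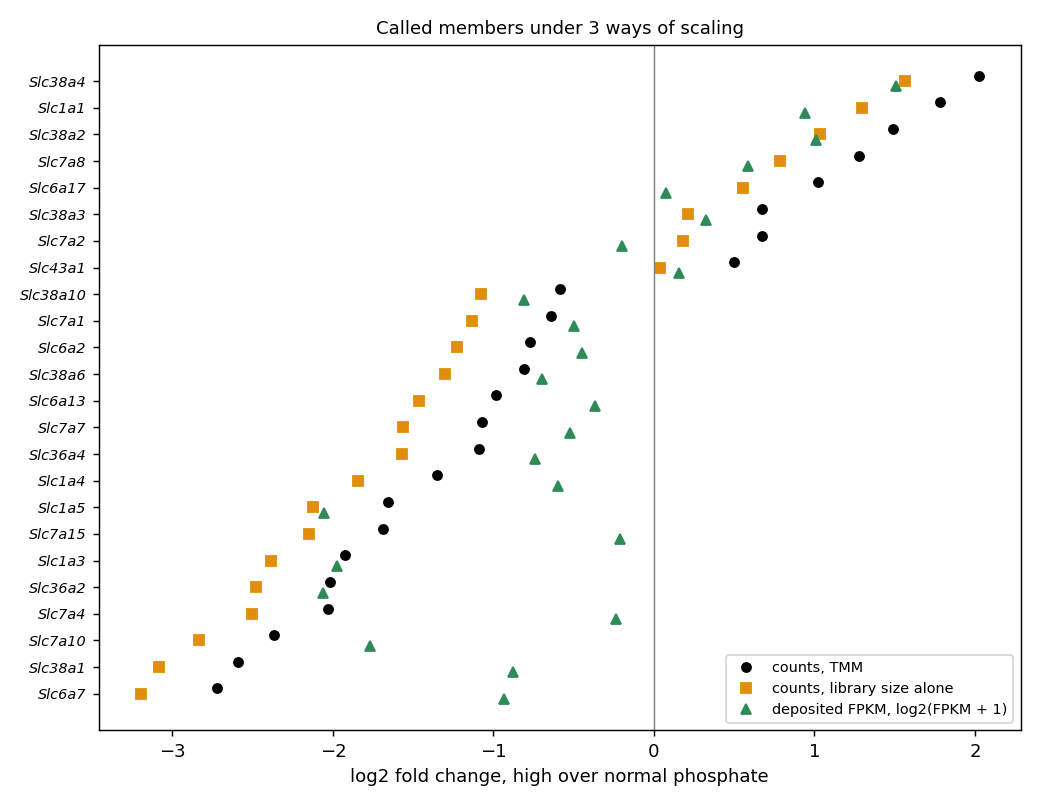
Log2 fold change, HP over NP, of the 24 called members under 3 scalings: counts with TMM (circles), counts scaled by library size alone (squares) and deposited FPKM as log2(FPKM + 1) (triangles). Squares lie left of circles by about the same amount in every member, and Slc7a2 is the one whose triangle lies across 0 from its circle.

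Other genes of amino acid handling were read from lists of related genes. Of 14 tested amino acid carriers outside the 7 families, 5 were higher and 2 lower, against the 23% and 26.3% of all genes given above. Slc16a10, the aromatic amino acid carrier TAT1, averaged 79.0 ± 15.3 CPM on HP and 40.3 ± 7.77 CPM on NP (log2 fold change 0.97 ± 0.18, edgeR adjusted p = 0.00259). The mitochondrial carriers Slc25a44, for branched-chain amino acids, and Slc25a12, for aspartate and glutamate, were higher (log2 fold changes 0.62 and 0.60), as were the lysosomal carriers Slc15a4, for histidine and peptides, and Pqlc2, for cationic amino acids (1.04 and 0.51). The lower genes were Mfsd12 and Slc15a3, both of lysosomes or related organelles (log2 fold changes -1.24 and -1.48). With library size alone the counts were 1 higher and 3 lower, and the list's median was 0.37 with TMM and -0.10 with library size alone, where all genes had -0.02 and -0.49.

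Of 23 tested genes that carry amino acid signals to mTORC1, 7 were higher and 1 lower, against 23% and 26.3% of all genes tested. Rragd, a Rag GTPase, averaged 404 ± 32.6 CPM on HP and 179.8 ± 37.9 CPM on NP (log2 fold change 1.17 ± 0.18, edgeR adjusted p = 0.00128), and Flcn, the folliculin that acts on the Rag GTPases, averaged 142 ± 35.0 CPM on HP and 68.3 ± 11.8 CPM on NP (log2 fold change 1.06 ± 0.19, edgeR adjusted p = 0.00239). The other higher genes were Rragb, Nprl2, Nprl3, Lamtor2 and Rraga (log2 fold changes 0.92, 0.43, 0.41, 0.33 and 0.28). Sesn3, a sestrin that restrains mTORC1, was the lower one (log2 fold change -0.61 ± 0.11, edgeR adjusted p = 0.00266). Nprl2 and Nprl3 also restrain mTORC1, so the calls give no single direction for the pathway. With library size alone 2 were higher and 4 lower, where all genes had 5.72% and 51.4%. The median was 0.25 with TMM and -0.22 with library size alone.

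Of 18 tested genes of the amino acid response, in which the kinase Gcn2 and the factor ATF4 respond to a shortage of amino acids, 4 were higher and 4 lower. Chac1, which degrades glutathione, averaged 128 ± 50.4 CPM on HP and 15.1 ± 3.43 CPM on NP (log2 fold change 3.08 ± 0.30, edgeR adjusted p = 0.000501), the largest increase of the list. Atf4 itself averaged 251 ± 6.26 CPM on HP and 156 ± 19.5 CPM on NP (log2 fold change 0.69 ± 0.13, edgeR adjusted p = 0.00325). The factor gene Cebpb and Shmt2, a mitochondrial serine enzyme, were also higher (log2 fold changes 1.21 and 0.46). The serine synthesis genes Phgdh and Psat1 were lower (-1.87 and -1.63), and so were the asparagine synthetase gene Asns (-1.25) and Nupr1 (-0.84). Phgdh averaged 4.96 ± 0.198 CPM on HP and 18.2 ± 1.61 CPM on NP. Both shares were close to those of all genes tested, 23% higher and 26.3% lower. With library size alone 2 were higher and 7 lower, where all genes had 5.72% and 51.4%. The list's median was 0.09 with TMM.

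Of 10 tested enzymes of glutamine, glutamate and branched-chain transamination, 4 were higher and 1 lower, against 23% and 26.3% of all genes tested. Gpt2, which makes alanine from pyruvate and glutamate in mitochondria, averaged 476 ± 54.2 CPM on HP and 164 ± 61.8 CPM on NP (log2 fold change 1.54 ± 0.27, edgeR adjusted p = 0.00235). Glul, the glutamine synthetase gene, averaged 601 ± 321 CPM on HP and 256 ± 48.6 CPM on NP (log2 fold change 1.23 ± 0.35, edgeR adjusted p = 0.0201), with 1 HP library at 961 CPM. Got2 and the muscle aminotransferase gene Bcat2 were higher (log2 fold changes 0.65 and 0.45), and Bcat1 was lower (-1.63). With library size alone 1 was higher and 3 lower, where all genes had 5.72% and 51.4%. The median was 0.36 with TMM and -0.12 with library size alone.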

How the data were processed

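RNA of gastrocnemius from mice on a high (HP) or normal (NP) phosphate diet was sequenced on Illumina instruments after TRIzol extraction, per the labels' protocols. The authors deposited raw counts for each Ensembl gene and, for all 6 libraries, FPKM values. The submitters' processing notes name GRCm38, featureCounts 1.4.6, HISAT2 2.0.1, Trim Galore 0.4.1 and DESeq2 1.6.3. The software that made the FPKM values is not given in the sources used here, nor are the annotation release and the strand setting of the counting.

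Libraries were grouped by the sample labels and none was left out. A chi-square test over genes gave 18.3 to 60.4 per degree of freedom between libraries of a diet, so none repeated another of its own diet. Libraries of different diets were not compared in this way. The quasi-likelihood test of edgeR 4.0.16 (R 4.3.3) was run on the counts with TMM, filterByExpr and robust estimation, with Benjamini-Hochberg adjustment over 15347 genes. The standard error was taken as the size of the log2 fold change over the square root of F, which is approximate. The common coefficient of variation was 0.161. Alternatives were RLE size factors, scaling by library size alone, no filter on low counts or a minimum of 1 CPM in 3 libraries, a block for the replicate number, leaving out each library, DESeq2 1.42.0, voom of limma 3.58.1, and limma on log2(FPKM + 1) and log2(FPKM + 0.1).

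The members and lists were chosen with earlier results of these data known. Values per library are given for called members that averaged 1 CPM or more and for uncalled members among the 10 with the highest mean FPKM. From the related lists, the 2 called genes with the smallest p in each direction, and all called genes where there were 5 or fewer, are named. In the list of amino acid signals to mTORC1 all called genes are named. For 1 uncalled member the values are not reported here, although it is in the counts. All 61 members matched GENCODE M21. RefSeq promoters (GRCm38.p6) matched 44 members. Exon overlap counts bases shared with another gene on either strand, and shared sequence counts exonic 50-base stretches also found in transcripts of another gene.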

Additional observations from a re-analysis of the deposited data

How the results depend on the processing

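With 3 libraries per diet, small differences could be missed, and counting error alone is large under 1 CPM. Of the 24 called members, 19 were called in every fit that left out 1 library and 11 in every alternative run: Slc1a1, Slc1a3, Slc1a4, Slc1a5, Slc36a2, Slc38a1, Slc38a10, Slc38a2, Slc38a4, Slc6a7 and Slc7a10. DESeq2, voom and RLE size factors kept all 24 calls. With the replicate number as a block, 22 were kept, and Slc38a3 (log2 fold change 0.70, edgeR adjusted p = 0.0541) and Slc6a2 (-0.78, edgeR adjusted p = 0.0533) were not. Deviations of same-numbered libraries correlated at -0.02, 0.02 and 0.02, so no shared shift was seen. That cannot show whether the numbers pair the libraries, and the labels name no pairing.

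Library size alone gave 878 genes higher and 7886 lower, 4 members higher and 26 lower, and a member median of -0.77. With no filter on low counts 8 members were higher and 18 lower, the 2 added being Slc6a11 and Slc7a11, and the member median was -0.41. It was -0.46 to -0.25 over the fits that left out 1 library. With log2(FPKM + 1), 718 genes and 3 members were higher, and the member median was -0.36. With log2(FPKM + 0.1) these were 742, 3 and -0.77. With log2(FPKM + 1) over all genes above 0 they were 566, 3 and -0.20. In each case the higher members were Slc38a2, Slc38a4 and Slc1a1.

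The following log2 fold changes changed sign, and apart from Slc7a2 none belonged to a called member. Under library size alone they were -0.31 for Slc3a2, -0.20 for Slc43a3, -0.085 for Slc6a15, -0.39 for Slc6a6 and -0.44 for Slc7a6, the last 2 then called lower (edgeR adjusted p = 0.0337 and 0.0217). With log2(FPKM + 1), with or without the filter, they were -0.36 for Slc3a2, -0.10 for Slc43a3, -0.0024 for Slc6a15, -0.28 for Slc6a6, -0.20 for Slc7a2 and -0.33 for Slc7a6. With log2(FPKM + 0.1) they were -0.38, -0.11, -0.0067, -0.30, -0.23 and -0.40 in the same order. Slc6a9 came to 0.0055 with RLE size factors, 0.012 with no filter and 0.027 with DESeq2. Over the fits that left out 1 library, 5 uncalled members took both signs, at -0.13 to 0.16 for Slc6a9, -0.16 to 0.012 for Slc36a1, -0.47 to 0.015 for Slc38a11, -0.12 to 0.027 for Slc38a7 and -0.032 to 0.14 for Slc7a6. The causes were not tested.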
